A study of Mus musculus with 8 samples.

Results

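The subject is how the effect of single-walled carbon nanotubes (SWCNT) on gene expression in the mouse lung differed between day 1 and day 7 after 1 instillation. For every gene the SWCNT minus PF68 difference on day 1 was subtracted from the SWCNT minus PF68 difference on day 7; this value is called the difference of effects below. It is positive where SWCNT raised the signal more, or lowered it less, on day 7. All 8 arrays of the series entered it, and 13854 of the 18191 genes with a probe set of their own passed the filter on dim signals and were tested.

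The 8 Affymetrix arrays held total RNA of lobe 1 of the right lung. The mice were male, of the outbred ICR stock, and 5 to 6 weeks old when bought. SWCNT mice had received 0.5 mg of tubes in 50 µl of 0.1% PF68, a surfactant also known as Pluronic F-68, through the trachea under pentobarbital, and PF68 mice the surfactant alone. The 4 groups were PF68 day 1, SWCNT day 1, PF68 day 7 and SWCNT day 7, with 2 arrays each that the labels call biological replicates. The labels do not say which or how many animals an array holds; the p-values below rest on the spread within the 4 groups of arrays, and that spread may be technical. No untreated lung was used here, so the surfactant, the neck incision and the anaesthesia are part of every group.

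Carbon nanotubes that reach the alveoli are engulfed by macrophages, which cannot digest them, and neutrophils enter the airspace early. Fibrous and aggregated carbon in the lung is known for granulomas, clusters of macrophages filled with particles, which form over days to weeks. Interferons, secreted by many cells in response to danger signals, switch on antiviral proteins, guanylate-binding and immunity-related GTPases, and chemokines such as Cxcl10, and these genes are switched off again when the interferon is gone. The signals are on a scale read as log2, so 1 unit is a factor of 2, and the median of each array was -0.628. A list of surfactant and alveolar cell markers, of type 2 cells and some of type 1 cells, stood at a mean of 5.89 to 6.04 on every array.

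Of the 13854 genes, 324 had a difference of effects that passed the test (limma, Benjamini-Hochberg adjusted p below 0.05), which is 2.34% of those tested; 196 were positive (1.41%) and 128 negative (0.924%). A gene that passes is called below. These shares of 1.41% positive and 0.924% negative are the background of every count of called list members below. On day 1, 300 genes were called (2.17%), 129 higher (0.931%) and 171 lower (1.23%) with SWCNT; on day 7, 302 were called (2.18%), 194 higher (1.4%) and 108 lower (0.78%). Only 40 genes were called on both days, 13.33% of the day 1 calls and 13.25% of the day 7 calls. Across all genes the Pearson correlation of the day 1 and day 7 differences was 0.001675; the days share no array, and genes are not independent replicates. The difference of effects uses the same arrays as both days' own comparisons, so it is not a further piece of evidence beside them.

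The number of called genes rested heavily on having 2 arrays in every group. Without 1 of the 8 arrays the count of called differences ran from 3, without SWCNT day 1 replicate 1, to 74, without PF68 day 7 replicate 1, although each of the 324 genes kept its sign in all 8 of these fits. Between these, the counts were 13 and 15 without PF68 day 1 replicates 1 and 2, 20 without SWCNT day 1 replicate 2, 41 without PF68 day 7 replicate 2, and 19 and 23 without SWCNT day 7 replicates 1 and 2. The genes called whichever array was left out were Car3, Cyp2e1 and Ifit1. The deposited values already share a common distribution. Scaling each array of these values further to its bacterial hybridization spikes gave 6745 called differences, 98.5% of them positive against 60.5% here. That scaling moved the median difference of effects over all genes from 0.05 to 0.86, so all directions below are relative to the bulk of the genes. It adds 0.81 to each difference of effects; all 324 called genes keep their sign, but a list median between -0.81 and 0 below changes sign under it.

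**Figure D1:**
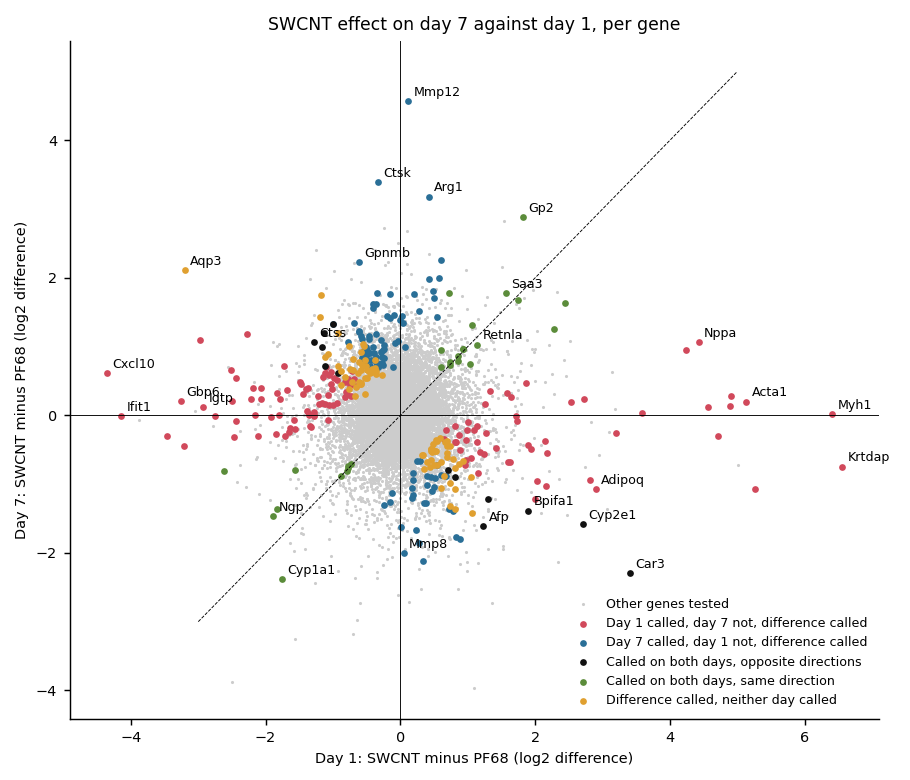
Each point is a gene; the x axis is the SWCNT minus PF68 log2 difference on day 1 and the y axis the same on day 7, and colours give the class of the calls. Genes with a called difference lie along both axes and in the upper left and lower right corners, off the dashed line of equal effects, where a called difference has to lie: 273 of the 324 have estimates of opposite sign, which the choice of a large difference favours.

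The genes sorted into classes by which of the 3 comparisons was called. Of the 260 genes called on day 1 and not on day 7, the difference of effects was called for 128 (53 higher and 75 lower on day 1), and for the other 132 a change on day 1 alone was not shown. Of the 262 called on day 7 and not on day 1, it was called for 98 (68 higher and 30 lower on day 7), and for the other 164 it was not. Both days were called in the same direction for 27 genes (17 higher and 10 lower) and in opposite directions for 13. A further 83 genes had a called difference with neither day called. In all 83 the estimates of the days had opposite signs, which the definition of this class all but forces. Leaving out any 1 of the 8 arrays gave 2 to 46 genes for day 1 alone, 0 to 11 for day 7 alone, 0 to 2 for both days in the same direction and 0 or 1 for opposite directions. The lowest count for day 1 alone came without SWCNT day 1 replicate 1 and the highest for day 1 alone and day 7 alone without PF68 day 7 replicate 1.

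The class called lower on day 1 held 25 of the 43 measured genes of 3 interferon lists and 0.541% of all genes tested. The 250 bases before the start of 4 genes are printed 5′ to 3′ on the gene's own strand. They come from the RefSeq promoter table of build GRCm38.p6. The 4 were picked among genes that hold the motif marked below, so they do not show how often the class holds it. Capitals mark the core of the interferon response element, AAANNGAAA or its complement read on the other strand. Ifit1 (chr19:34640639-34640888, plus strand), Cxcl10 (chr5:92348890-92349139, minus strand) and Igtp (chr11:58199306-58199555, plus strand) belong to the class called lower on day 1. Ctss (chr3:95526536-95526785, plus strand) lies outside it, as it was called lower on day 1 and higher on day 7.

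Ifit1: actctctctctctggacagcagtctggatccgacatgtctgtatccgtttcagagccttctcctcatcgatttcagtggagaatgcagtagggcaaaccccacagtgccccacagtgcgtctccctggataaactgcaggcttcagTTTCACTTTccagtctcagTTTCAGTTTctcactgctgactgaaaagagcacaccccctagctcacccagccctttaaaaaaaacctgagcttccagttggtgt
Cxcl10: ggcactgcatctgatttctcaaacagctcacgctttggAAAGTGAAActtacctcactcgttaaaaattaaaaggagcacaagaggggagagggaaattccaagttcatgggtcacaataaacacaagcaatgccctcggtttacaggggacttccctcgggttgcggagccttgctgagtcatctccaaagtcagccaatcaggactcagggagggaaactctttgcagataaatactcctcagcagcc
Igtp: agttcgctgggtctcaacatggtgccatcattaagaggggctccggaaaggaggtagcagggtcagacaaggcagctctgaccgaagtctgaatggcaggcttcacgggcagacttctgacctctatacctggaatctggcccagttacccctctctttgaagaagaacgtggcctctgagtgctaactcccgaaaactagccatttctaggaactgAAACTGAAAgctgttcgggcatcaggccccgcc
Ctss: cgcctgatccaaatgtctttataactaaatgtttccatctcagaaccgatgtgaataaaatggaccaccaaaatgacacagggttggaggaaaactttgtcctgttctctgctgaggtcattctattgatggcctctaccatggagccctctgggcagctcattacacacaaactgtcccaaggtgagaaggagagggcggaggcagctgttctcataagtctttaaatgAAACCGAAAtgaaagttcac

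Ifit1 held 2 cores, the nearer beginning 85 bases before the start, Igtp 1 beginning 33 bases before it, Ctss 1 beginning 20 bases before it and Cxcl10 1 beginning 212 bases before it. The core was searched on both strands in windows of 300 bases, 250 before to 50 after each start, and matches of different motifs were counted apart even where they overlap. It was found in 8.01% of the 14206 windows of the genes tested and in 10.6% of all 32851 windows of the table. Of the class called lower on day 1, 51 of 75 genes had a window, and 21 of their 55 windows (38.2%) held the core. The share was 21.7% of the windows of the class called higher on day 7 and 1.92% of those of the class called higher on day 1. Over all called differences it was 26.0% of the windows of positive and 4.13% of those of negative ones. The AP-1 motif TGANTCA stood in 5.74% of windows of the genes tested, in 17.3% for the class higher on day 1, in 10.9% for the class lower on day 1 and in 13.0% for the class higher on day 7. The core of the site of MEF2, a factor of muscle genes, TAAAAATA, stood in 1.2% of windows of the genes tested and in 1.92%, 1 window, of the class higher on day 1. These matches describe letters and do not show that a factor binds.

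Interferon-induced genes stood high in PF68 lungs on day 1 and lower in the other 3 groups. Ifit1, which binds foreign RNA, gave 4.84 and 5.01 in the PF68 arrays of day 1 and 0.97 and 0.59 in the SWCNT arrays. On day 7 it gave 1.87 and 2.08 with PF68 and 2.01 and 1.93 with SWCNT. The day 1 groups stood far apart and the day 7 groups overlapped, so the SWCNT effect was -4.14 ± 0.17 (adjusted p = 0.00107) on day 1 and -0.01 ± 0.17 (adjusted p = 0.979) on day 7 by limma, ± giving the standard error throughout. The difference of effects was 4.13 ± 0.24 (adjusted p = 0.00513). The PF68 level of Ifit1 itself fell by 2.95 from day 1 to day 7 (adjusted p = 0.0031), while the SWCNT level rose by 1.18 (adjusted p = 0.0118).

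Cxcl10, the chemokine that draws activated T cells, showed the same layout. Its arrays read 3.13 and 3.05 in PF68 day 1, -1.64 and -0.90 in SWCNT day 1, -1.28 and -1.75 in PF68 day 7 and -1.12 and -0.69 in SWCNT day 7. All 6 arrays outside PF68 day 1 were below the array median. The SWCNT effect was -4.36 ± 0.30 (adjusted p = 0.00484) on day 1 and 0.62 ± 0.30 (adjusted p = 0.287) on day 7, and the difference of effects 4.98 ± 0.43 (adjusted p = 0.0147) by limma.

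The immunity-related GTPases Igtp and Irgm2 and the guanylate-binding protein Gbp6, which attack the vacuoles of pathogens, followed. Igtp read 4.96 and 4.97 in PF68 day 1 against 2.01 and 2.07 in SWCNT day 1, 2.08 and 2.30 in PF68 day 7 and 2.27 and 2.35 in SWCNT day 7. Gbp6 read 3.78 and 3.80 in PF68 day 1 against 0.41 and 0.65 in SWCNT day 1, and 2.16 and 1.84 against 2.20 and 2.23 on day 7. In both genes the PF68 day 1 arrays were the high ones, and Gbp6 was lowest in SWCNT day 1. The differences of effects were 3.05 ± 0.17 (adjusted p = 0.00513) for Igtp, 3.47 ± 0.21 (adjusted p = 0.00513) for Gbp6 and 3.17 ± 0.29 (adjusted p = 0.0159) for Irgm2 by limma. Ifit2 and Ifit3, relatives of Ifit1, gave 3.16 ± 0.39 (adjusted p = 0.0286) and 2.98 ± 0.20 (adjusted p = 0.00706), and Cmpk2, an interferon-induced nucleotide kinase, 2.76 ± 0.19 (adjusted p = 0.00706). Gbp2 gave 2.60 ± 0.23 (adjusted p = 0.0147).

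Over the list of interferon-induced antiviral genes, 17 of 30 measured members had a called positive difference and none a negative one, beside 1.41% and 0.924% of all genes. The list's median was -1.52 on day 1, -0.20 on day 7 and 1.50 for the difference of effects, where the median of all genes was 0.05 for the difference. On day 1 alone, 19 of the 30 were called lower, and on day 7, 2 were. Of the 9 measured interferon-induced GTPases, 8 had a called positive difference, with a median of -2.22 on day 1 and 0.21 on day 7; all 9 were called lower on day 1. Among the 4 interferon-induced chemokines only Cxcl10 was called in the difference. The antiviral list's mean level was 2.96 and 2.93 on the PF68 day 1 arrays and between 1.16 and 1.41 on the other 6. Without 1 of the 8 arrays in turn, 1 to 8 antiviral genes and 0 to 7 GTPases were still called. In all, 25 of the 75 genes of the class called lower on day 1 belonged to these 3 lists of 43 measured genes.

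Rsad2 (viperin, an antiviral enzyme) was called lower on both days and also in the difference. It read 5.06 and 5.18 against 2.49 and 2.51 on day 1 and 3.73 and 3.82 against 3.02 and 2.90 on day 7, PF68 first. The groups stood apart on both days, by -2.62 ± 0.11 (adjusted p = 0.00107) and -0.81 ± 0.11 (adjusted p = 0.0392), with a difference of 1.80 ± 0.16 (adjusted p = 0.0147) by limma; it is named because only Rsad2 and Lrg1 of the 27 genes called in the same direction had a called difference. Lrg1, a secreted glycoprotein of the acute phase, was higher on both days, by 0.72 ± 0.10 (adjusted p = 0.0376) on day 1 and 1.78 ± 0.10 (adjusted p = 0.00899) on day 7, with a difference of 1.06 ± 0.15 (adjusted p = 0.0366).

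**Figure D2:**
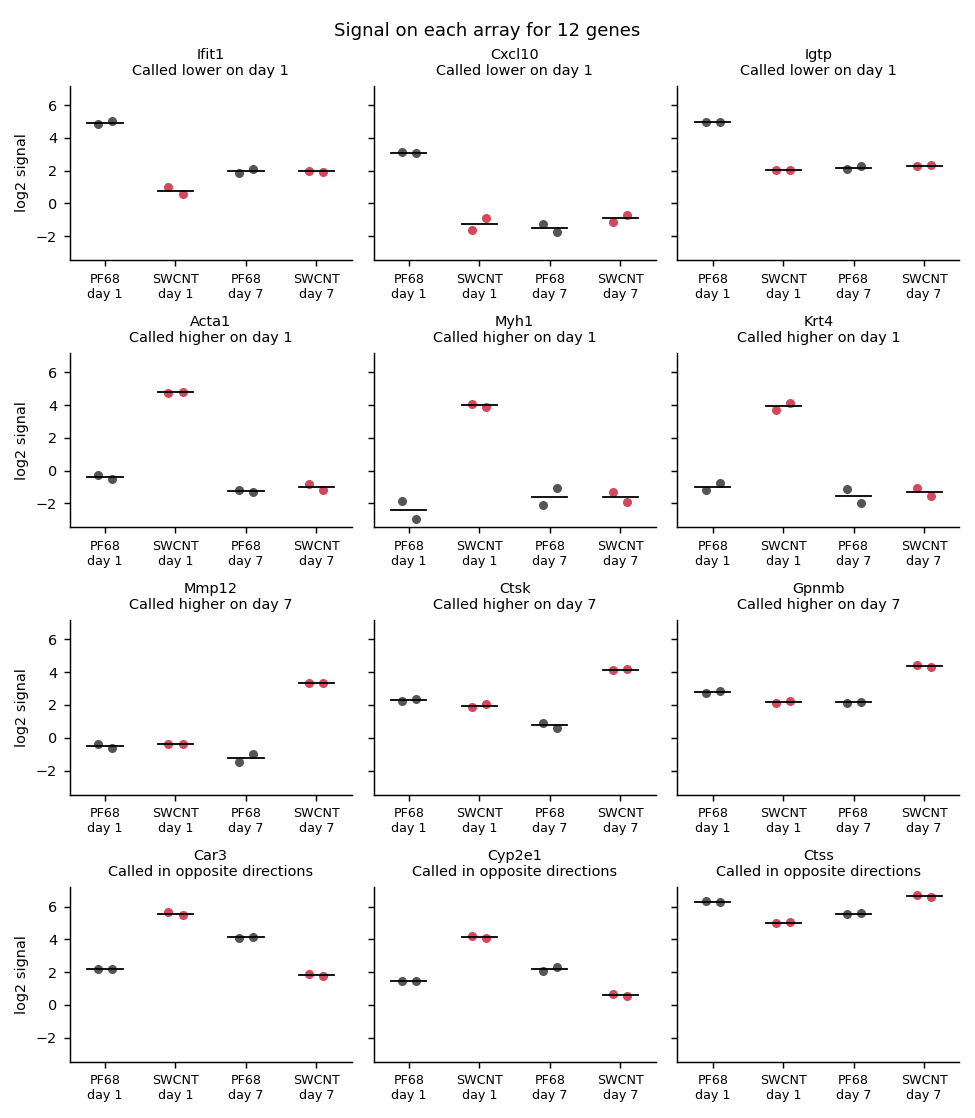
Log2 signal (y axis) on each array for 12 genes, by group (x axis); points are the 2 arrays of a group, grey for PF68 and red for SWCNT, and bars are group means. Ifit1, Cxcl10 and Igtp are high in PF68 day 1 alone, Acta1, Myh1 and Krt4 in SWCNT day 1 alone and Mmp12, Ctsk and Gpnmb in SWCNT day 7, while Car3, Cyp2e1 and Ctss change sides between the days.

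Other genes called lower on day 1 with a called difference included markers of immune cells and an early-response gene. Nr4a1, an immediate early nuclear receptor that also marks patrolling monocytes, read 3.41 and 3.30 in PF68 day 1 and 1.56 and 1.30 in SWCNT day 1, 1.89 and 2.05 in PF68 day 7 and 1.70 and 2.19 in SWCNT day 7. Its PF68 day 1 arrays were the high ones, and the difference of effects was 1.90 ± 0.28 (adjusted p = 0.0396) by limma. Plac8, abundant in monocytes, gave 1.19 ± 0.18 (adjusted p = 0.0414), Gzma, a granzyme of cytotoxic lymphocytes, 1.01 ± 0.17 (adjusted p = 0.0489), and C2, a complement protease, 1.37 ± 0.20 (adjusted p = 0.0387). Krt79, a keratin found in alveolar macrophages of mice, gave 1.30 ± 0.15 (adjusted p = 0.0265), and Pcdhb13, a protocadherin, 3.45 ± 0.31 (adjusted p = 0.0156). In whole lung tissue, fewer cells of a type and less RNA per cell cannot be told apart. Of 21 measured T and NK cell markers, Gzma alone had a called difference, beside 2.34% of all genes. The list's median difference was 0.97, and 18 of 21 estimates were positive, beside 53.8% of all genes. The list's mean level ran from -0.31 and -0.27 in SWCNT day 1 to 0.38 and 0.50 in PF68 day 1.

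Genes of muscle, squamous epithelium and fat led the class called higher on day 1. Acta1, the actin of skeletal muscle, read 4.74 and 4.80 in SWCNT day 1 against -0.25 and -0.49 in PF68 day 1, -1.17 and -1.29 in PF68 day 7 and -0.85 and -1.21 in SWCNT day 7. Myh1, a myosin heavy chain of fast muscle fibres, read 4.07 and 3.89 in SWCNT day 1 against -1.87 and -2.98, -2.13 and -1.09 and -1.28 and -1.91 in the same order. Both genes were below the array median on most or all arrays outside SWCNT day 1, on 4 arrays for Acta1 and on 6 for Myh1. The SWCNT effect on day 1 was 5.13 ± 0.16 (adjusted p = 0.000867) for Acta1 and 6.41 ± 0.50 (adjusted p = 0.00676) for Myh1, and the differences of effects were -4.94 ± 0.23 (adjusted p = 0.00458) and -6.40 ± 0.70 (adjusted p = 0.0232) by limma. The fast troponins Tnnc2 and Tnnt3 gave -6.33 ± 0.66 (adjusted p = 0.0225) and -4.44 ± 0.34 (adjusted p = 0.0099), and Myl1, a myosin light chain, -4.75 ± 0.74 (adjusted p = 0.0457). Tnnc2, Tnnt3 and Myl1, like Myh1, were below the array median on 6 arrays and passed the filter through SWCNT day 1 alone.

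Krt4, a keratin of squamous linings such as the oesophagus, read 3.71 and 4.14 in SWCNT day 1 against -1.21 and -0.74 in PF68 day 1, -1.15 and -1.98 in PF68 day 7 and -1.05 and -1.53 in SWCNT day 7. Krtdap, made by maturing keratinocytes, read 2.10 and 1.86 in SWCNT day 1 against -3.27 and -5.88, -2.33 and -2.11 and -3.50 and -2.44. Krtdap had the largest negative difference among the named genes, -7.30 ± 1.18 (adjusted p = 0.0469), and the widest error of them; its PF68 day 1 value of -5.88 was the lowest on any array. Krt4 gave -4.63 ± 0.50 (adjusted p = 0.0225), Mt4, a metallothionein of squamous epithelium, -5.02 ± 0.26 (adjusted p = 0.00513), and Crct1, a gene of the epidermal differentiation cluster, -3.75 ± 0.48 (adjusted p = 0.0311) by limma. Sbsn, a secreted keratinocyte protein, gave -1.29 ± 0.16 (adjusted p = 0.0286). Krt4, Krtdap, Mt4 and Crct1 were below the array median on 6 arrays and passed the filter through SWCNT day 1 alone.

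Adipoq, the fat cell hormone adiponectin, read 2.67 and 2.81 in SWCNT day 1 and -0.39 and 0.07 in PF68 day 1, then 0.90 and 0.93 in PF68 day 7 and 0.06 and -0.37 in SWCNT day 7. SWCNT day 1 was high and the day 7 groups stood apart in the other direction, by -1.07 ± 0.21 (adjusted p = 0.0631), which did not pass. The difference of effects was -3.97 ± 0.30 (adjusted p = 0.00871) by limma. Pck1, an enzyme of glucose and glyceride synthesis, gave -3.23 ± 0.35 (adjusted p = 0.0225) and Fabp4, a fatty acid carrier of fat cells, endothelium and macrophages, -1.38 ± 0.17 (adjusted p = 0.0292). Nppa, the atrial natriuretic peptide of heart muscle and of the muscle sleeves of pulmonary veins, read 4.47 and 4.35 in SWCNT day 1, -0.19 and 0.16 in PF68 day 1, -0.08 and 0.39 in PF68 day 7 and 1.20 and 1.24 in SWCNT day 7. It was called higher on day 1 by 4.43 ± 0.20 (adjusted p = 0.00115), while day 7 gave 1.07 ± 0.20 (adjusted p = 0.0591), and the difference was -3.36 ± 0.28 (adjusted p = 0.0147).

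Of 23 measured skeletal muscle genes, 12 had a called negative difference and none a positive one; the median was 2.84 on day 1, -0.04 on day 7 and -2.93 for the difference. Of the 23, 9 lay below the array median on 6 arrays and passed the filter through SWCNT day 1 alone, 7 of them called, so the count is no support by itself. The list's mean level was 2.20 and 2.22 on the SWCNT day 1 arrays and between -0.70 and -0.50 on the other 6. Of 22 cardiac muscle genes 5 were called negative (median -0.95), of 12 smooth muscle genes 2 (median -0.55), of 21 squamous epithelium genes 4 (median -0.79) and of 11 adipocyte genes 5 (median -1.50), with no positive call in any of these lists. Of the 21 squamous genes, 6 were below the array median on 6 arrays, and 3 of the 4 called, Krt4, Krtdap and Mt4, were among them, so that count too is no support by itself. Without 1 of the arrays in turn, 0 to 4 skeletal muscle, 0 to 2 cardiac, 0 smooth muscle, 0 to 3 squamous and 1 to 3 adipocyte genes were still called. Of the 53 genes of the class called higher on day 1, 18 were in the 3 muscle lists of 57 measured genes. The squamous list held 4 and the adipocyte list 3, and the class held 0.383% of all genes tested. The muscle and squamous counts include the members that passed the filter through SWCNT day 1 alone, so they too are no support by themselves. The labelled tissue is a lung lobe, so these values give markers of other tissues that moved with the SWCNT day 1 group; whether tissue beside the lung entered those samples was not tested. Heart and vessel muscle genes had called members too: Tnni3, the cardiac troponin I, with -1.22 ± 0.16 (adjusted p = 0.0336), Tnnc1, of heart and slow fibres, with -1.16 ± 0.19 (adjusted p = 0.0467), Des, the muscle filament desmin, with -1.81 ± 0.22 (adjusted p = 0.0274), and Acta2, the smooth muscle actin, with -0.95 ± 0.15 (adjusted p = 0.0469).

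The remaining named genes of the class called higher on day 1 belonged to metabolism, the airway and the clock. Pfkl and Tpi1, enzymes of glycolysis, gave differences of effects of -1.25 ± 0.16 (adjusted p = 0.0331) and -0.96 ± 0.16 (adjusted p = 0.0491), and Fabp3, a fatty acid carrier of heart and muscle, -1.89 ± 0.29 (adjusted p = 0.0444) by limma. Muc5b, a gel-forming airway mucin, read 3.21 and 3.31 in SWCNT day 1 against 2.11 and 2.13 in PF68 day 1, 1.75 and 1.83 in PF68 day 7 and 1.29 and 1.50 in SWCNT day 7. It was high in SWCNT day 1, with a difference of effects of -1.53 ± 0.17 (adjusted p = 0.0236). Nr1d1, a repressor of the circadian clock, gave -1.63 ± 0.19 (adjusted p = 0.027); 1 of 17 measured clock genes was called. Ighm, the heavy chain of immunoglobulin M, gave -1.68 ± 0.22 (adjusted p = 0.0336), but the median over its probe sets gave 0.68.

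**Figure D3:**
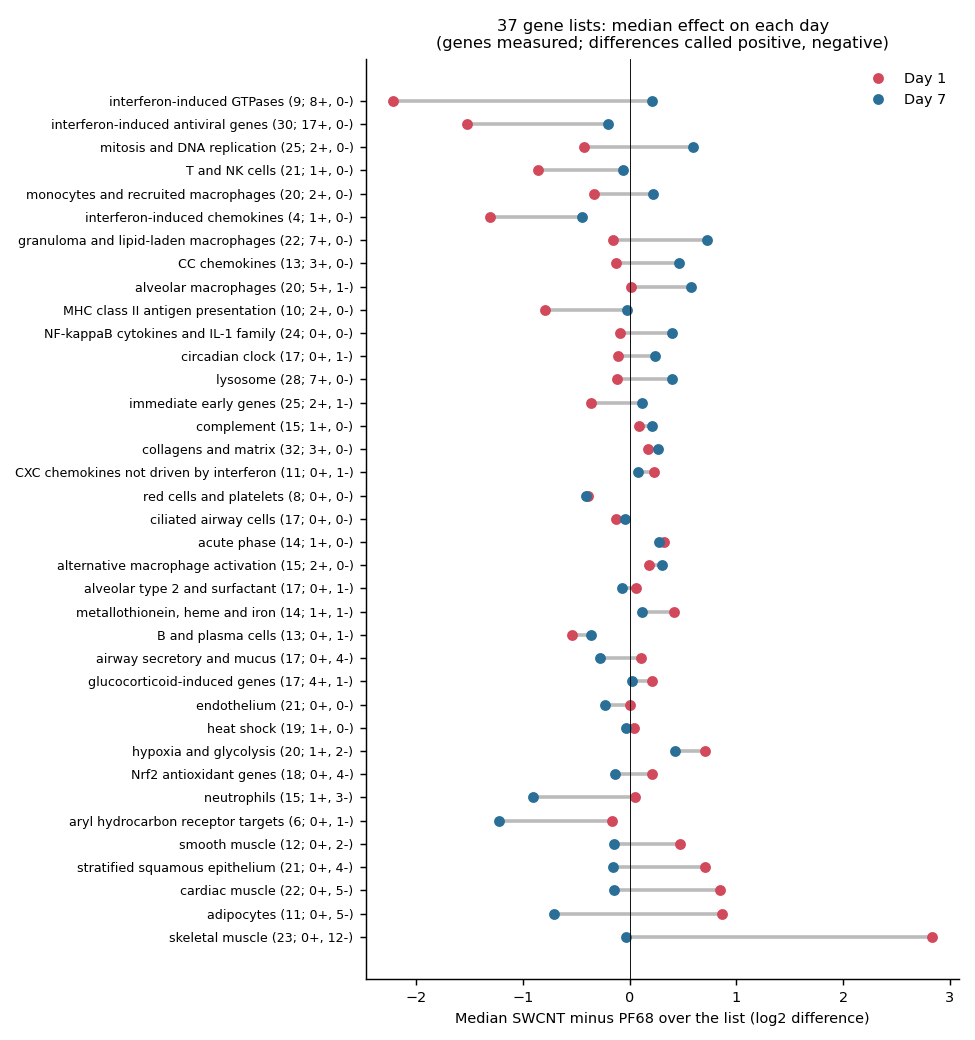
For each of 37 gene lists (y axis, with the number measured and the called positive and negative differences) the points give the median SWCNT minus PF68 log2 difference (x axis) over the list on day 1 (red) and day 7 (blue). Skeletal muscle runs from 2.84 on day 1 to -0.04 on day 7, interferon-induced GTPases from -2.22 to 0.21, and granuloma and lipid-laden macrophages from -0.15 to 0.72.

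Genes called only on day 7 included products of macrophages. Mmp12, the macrophage elastase, read 3.33 and 3.34 in SWCNT day 7 against -1.46 and -1.01 in PF68 day 7, and -0.39 and -0.40 against -0.38 and -0.66 on day 1. SWCNT day 7 was the high group, and the day 1 groups overlapped. The SWCNT effect was 4.57 ± 0.18 (adjusted p = 0.00419) on day 7 and 0.12 ± 0.18 (adjusted p = 0.786) on day 1, with a difference of 4.45 ± 0.26 (adjusted p = 0.00513) by limma. Ctsk, a collagen-cutting cathepsin, read 4.12 and 4.17 in SWCNT day 7 against 0.90 and 0.61 in PF68 day 7, and 1.87 and 2.05 against 2.23 and 2.36 on day 1. Its difference was 3.73 ± 0.21 (adjusted p = 0.00513); the PF68 day 7 arrays were also below both day 1 groups, the PF68 level changing by -1.54 ± 0.15 (adjusted p = 0.00812) from day 1 to day 7.

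Gpnmb, a membrane glycoprotein of lipid-laden and granuloma macrophages, read 4.43 and 4.34 in SWCNT day 7 against 2.11 and 2.21 in PF68 day 7, and 2.12 and 2.23 against 2.71 and 2.87 on day 1. Only the SWCNT day 7 arrays were high, and the difference was 2.84 ± 0.17 (adjusted p = 0.00513) by limma. Cd68, a lysosomal protein of macrophages, read 4.24 and 4.26 against 2.68 and 2.59 on day 7 and 3.37 and 3.41 against 3.77 and 3.83 on day 1, SWCNT first. The groups did not overlap on either day, with opposite signs, of which only day 7 passed, and the difference was 2.02 ± 0.14 (adjusted p = 0.00824). Arg1, the arginase of alternatively activated macrophages, gave 2.76 ± 0.41 (adjusted p = 0.0409), and Tlr7, a receptor for single-stranded RNA, 2.32 ± 0.30 (adjusted p = 0.0316). Atp6v0d2, a proton pump subunit, gave 1.57 ± 0.19 (adjusted p = 0.027), Clec7a, the glucan receptor Dectin-1, 1.38 ± 0.18 (adjusted p = 0.0336), and the acid protease Ctsd 1.20 ± 0.17 (adjusted p = 0.0375).

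Of 22 measured genes of granuloma and lipid-laden macrophages, 7 had a called positive difference and none a negative one; the median was -0.15 on day 1 and 0.72 on day 7, and 10 were called higher on day 7. Of 28 lysosome genes 7 were called positive and none negative, with a median difference of 0.44. Of 20 alveolar macrophage markers 5 were called positive, and 1, Fabp4, negative. The mean level of the granuloma list was 3.92 and 3.93 in SWCNT day 7 and between 2.87 and 3.19 on the other 6 arrays. Without 1 of the arrays in turn, 0 to 5 granuloma, 0 to 2 lysosome and 0 or 1 alveolar macrophage genes were still called. Of the 68 genes of the class called higher on day 7, 11 were in these 3 lists of 62 measured genes; the class held 0.491% of all genes tested. The monocyte list had 2 called of 20, with a median of 0.80, and its mean level was highest in PF68 day 1 (1.76 and 1.71) and SWCNT day 7 (1.62 and 1.73).

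Chemokines and matrix genes joined the class called higher on day 7. Ccl9 read 4.98 and 4.97 in SWCNT day 7 against 3.54 and 3.64 in PF68 day 7, and 3.45 and 3.57 against 3.58 and 3.45 on day 1. The 6 arrays outside SWCNT day 7 lay close together, and the difference was 1.40 ± 0.16 (adjusted p = 0.0249) by limma. Ccl3 gave 1.92 ± 0.26 (adjusted p = 0.0366); 3 of 13 CC chemokines were called positive and none negative. Fn1, fibronectin, read 5.26 and 5.28 in SWCNT day 7 against 3.78 and 3.83 in PF68 day 7, and 4.63 and 4.68 against 4.76 and 4.72 on day 1. The PF68 day 7 arrays were the lowest, so its difference of 1.56 ± 0.14 (adjusted p = 0.0156) combined a high SWCNT and a low PF68 level. Its other probe set gave -0.80, and the median over both, 0.38 (adjusted p = 0.484, limma), was not called.

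Lox, the enzyme that crosslinks collagen, read 4.79 and 4.90 in PF68 day 1, 5.12 and 5.12 in SWCNT day 1, 1.76 and 1.84 in PF68 day 7 and 3.35 and 3.30 in SWCNT day 7. The day 7 SWCNT arrays stood above their controls but below both day 1 groups. The difference of effects was 1.24 ± 0.15 (adjusted p = 0.027) by limma, while the SWCNT level fell by 1.80 between the days (adjusted p = 0.00356). The same layout was seen for Mt2, a metallothionein induced by metals and glucocorticoids, at 1.21 ± 0.19 (adjusted p = 0.0457), for Lcn2, an iron-sequestering protein of neutrophils and epithelium, at 1.33 ± 0.20 (adjusted p = 0.041), and for Ankrd37, a gene induced by low oxygen, at 1.65 ± 0.24 (adjusted p = 0.0409). Mfap4, a protein of elastic fibres, gave 1.97 ± 0.20 (adjusted p = 0.0211), Fos, an immediate early factor, 1.84 ± 0.24 (adjusted p = 0.0331), and Ttll9, of a family that modifies tubulin, 2.12 ± 0.19 (adjusted p = 0.0156). Of 32 collagen and matrix genes 3 were called positive and none negative, and the median difference was 0.19.

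The genes called lower on day 7 with a called difference included neutrophil and airway genes. Mmp8, the neutrophil collagenase, read -0.04 and 0.32 in SWCNT day 7 against 2.10 and 2.18 in PF68 day 7, and 2.20 and 2.46 against 2.30 and 2.26 on day 1. Only the SWCNT day 7 arrays were low, and the difference was -2.05 ± 0.23 (adjusted p = 0.0248) by limma. S100a8 and S100a9, the subunits of calprotectin in neutrophils, gave -1.34 ± 0.14 (adjusted p = 0.0225) and -1.01 ± 0.14 (adjusted p = 0.0369). Of 15 measured neutrophil markers, 3 were called negative and 1, Lcn2, positive, beside 0.924% and 1.41% of all genes. The median was 0.05 on day 1 and -0.91 on day 7. On day 7 itself the list was split, with 5 markers called lower and 3 higher, beside 0.78% and 1.4% of all genes. Aldh3a1, an aldehyde dehydrogenase under the aryl hydrocarbon receptor, gave -2.13 ± 0.23 (adjusted p = 0.0225), and Bpifb1, an airway secretory protein, -1.05 ± 0.17 (adjusted p = 0.0467). Gpx2, a glutathione peroxidase under Nrf2, gave -1.12 ± 0.18 (adjusted p = 0.0483), and Pdpn, a membrane protein of type 1 alveolar cells, -0.91 ± 0.14 (adjusted p = 0.0433). With Aldh3a1, the largest negative differences among the named genes of this class were those of Rasgrf1, Golt1b, Best2 and Agbl5. Rasgrf1, an exchange factor of Ras, gave -2.68 ± 0.37 (adjusted p = 0.0366), and Golt1b, a Golgi transport protein, -2.59 ± 0.25 (adjusted p = 0.0193) by limma. Best2, a bestrophin anion channel, gave -2.18 ± 0.30 (adjusted p = 0.0365), and Agbl5, a carboxypeptidase that trims tubulin, -2.07 ± 0.23 (adjusted p = 0.0244). For Agbl5 the median over its probe sets was 0.16, the other direction. The other probe set of Golt1b gave 0.95, and the median over both, -0.82 (adjusted p = 0.198, limma), was not called.

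**Figure D4:**
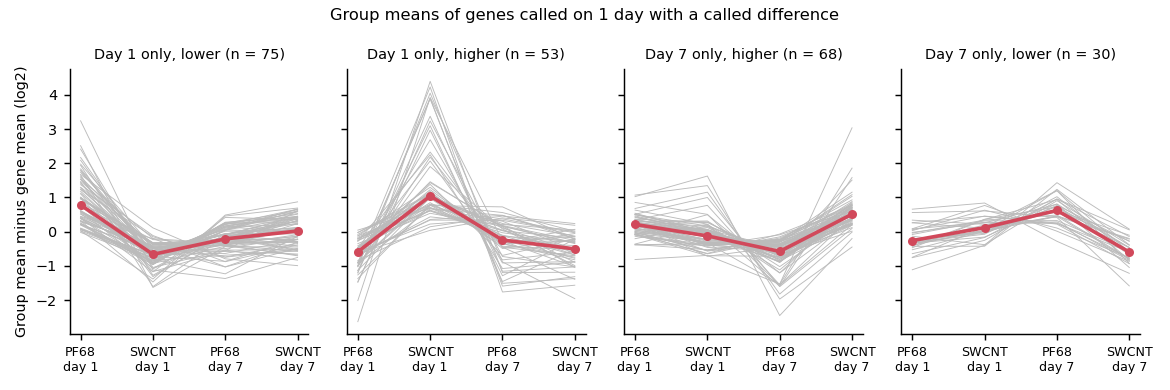
Group means (x axis) of each gene minus the gene's mean over the 4 groups (y axis, log2), grey lines for genes and red for their median, in the 4 classes called on 1 day with a called difference. Of the 75 genes called lower on day 1, 56 are highest in PF68 day 1, and of the 68 called higher on day 7, 53 are lowest in PF68 day 7. The rule of each class favours these positions.

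The level of the PF68 groups differed between the days, and a called difference could come from either treatment. Between day 1 and day 7, 17.7% of all genes were called within PF68 and 16.3% within SWCNT. Among the 196 positive differences, 136 were called between the days within PF68 and 122 within SWCNT, 62 in both; among the 128 negative ones the numbers were 60, 95 and 27. By group means, 94 of the 196 were highest in PF68 day 1 and 94 in SWCNT day 7, and 100 were lowest in SWCNT day 1 and 89 in PF68 day 7. Of the 128, 87 were highest in SWCNT day 1 and 71 lowest in SWCNT day 7. Of the 53 genes called higher on day 1, 49 were highest in SWCNT day 1, and of the 30 called lower on day 7, 22 were highest in PF68 day 7. The choice of called genes favours such positions and also calls between the days. The counts by themselves therefore do not separate the treatments.

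The 13 genes called in opposite directions formed a group of 7 that were higher with SWCNT on day 1 and lower on day 7 and a group of 6 with the reverse order. In the former, Car3, a carbonic anhydrase abundant in fat and muscle, read 2.16 and 2.17 in PF68 day 1 and 5.65 and 5.50 in SWCNT day 1, then 4.07 and 4.16 in PF68 day 7 and 1.86 and 1.77 in SWCNT day 7. The groups stood apart on both days, by 3.41 ± 0.11 (adjusted p = 0.000867) and -2.30 ± 0.11 (adjusted p = 0.00558), and the difference of effects was -5.71 ± 0.16 (adjusted p = 0.000653) by limma. Cyp2e1, a cytochrome P450 that oxidises ethanol and solvents, read 1.44 and 1.43 and 4.18 and 4.10 on day 1, 2.06 and 2.28 and 0.67 and 0.51 on day 7, PF68 before SWCNT. It changed by 2.71 ± 0.13 (adjusted p = 0.00115) on day 1 and -1.58 ± 0.13 (adjusted p = 0.0147) on day 7, a difference of -4.28 ± 0.18 (adjusted p = 0.00358).

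Bpifa1, an antimicrobial protein of the upper airway lining, read 4.20 and 4.34 in PF68 and 6.13 and 6.20 in SWCNT on day 1, then 5.46 and 5.36 and 4.15 and 3.91 on day 7. SWCNT was higher on day 1 and lower on day 7, with a difference of -3.28 ± 0.19 (adjusted p = 0.00513) by limma. Afp, alpha-fetoprotein, gave -2.84 ± 0.26 (adjusted p = 0.0156), Cox4i2, the lung form of a cytochrome c oxidase subunit, -2.51 ± 0.19 (adjusted p = 0.0099), and Gstm1, a glutathione transferase, -1.50 ± 0.16 (adjusted p = 0.0225). Nnat, neuronatin, a small membrane protein, gave -1.71 ± 0.18 (adjusted p = 0.0225). The further probe sets of Gstm1 gave -0.24, -0.04 and 0.29 on day 1 and -0.83, -0.36 and -0.72 on day 7. Those of Afp kept both directions, with -0.37, -0.33 and -2.20 on day 7. That of Car3 did too, with 2.34 on day 1 and -0.82 on day 7. Under spike scaling Afp, Gstm1 and Nnat were no longer called on both days; the other 10 of the 13 were.

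In the group of 6, Ctss, the cathepsin that frees MHC class II molecules of their chaperone, read 6.31 and 6.30 in PF68 day 1 and 4.99 and 5.05 in SWCNT day 1, then 5.56 and 5.59 in PF68 day 7 and 6.70 and 6.59 in SWCNT day 7. The change was -1.29 ± 0.10 (adjusted p = 0.0074) on day 1 and 1.07 ± 0.10 (adjusted p = 0.0227) on day 7, and the difference of effects 2.35 ± 0.15 (adjusted p = 0.00513) by limma. Chia1, acidic mammalian chitinase, read 4.93 and 4.94 in PF68 and 3.83 and 3.81 in SWCNT on day 1, 4.19 and 4.23 and 4.92 and 4.93 on day 7. PF68 was the higher group on day 1 and SWCNT on day 7, with a difference of 1.84 ± 0.14 (adjusted p = 0.00871). Cdca8, borealin, which guides chromosomes in mitosis, gave 2.34 ± 0.21 (adjusted p = 0.0147), and Rgs1, a brake on chemokine receptors, 2.33 ± 0.26 (adjusted p = 0.0236). The other probe set of Cdca8 was higher with SWCNT on both days, by 0.16 on day 1 and 1.54 on day 7. Ccl8, a monocyte chemokine, gave 2.16 ± 0.20 (adjusted p = 0.0156), and Cybb, the catalytic subunit of the phagocyte oxidase, 1.55 ± 0.15 (adjusted p = 0.0168). Cybb and Nnat lie outside the rule that chose the named genes and are given so that all 13 are.

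For the 27 genes called on both days in the same direction, 25 differences of effects were not called, and the median size of the difference was 0.11 over the 17 higher genes and 0.23 over the 10 lower ones. Saa3, an acute phase protein made in the mouse lung, read 3.13 and 3.20 in PF68 and 4.78 and 4.68 in SWCNT on day 1, 2.09 and 1.87 and 3.84 and 3.68 on day 7. SWCNT was higher on both days, by 1.57 ± 0.13 (adjusted p = 0.00771) and 1.78 ± 0.13 (adjusted p = 0.014), and the unadjusted 95% interval of the difference was -0.24 to 0.67 by limma. Retnla, a resistin-like protein of alternatively activated macrophages and epithelium, read 5.70 and 5.52 in PF68 and 6.77 and 6.73 in SWCNT on day 1, 5.20 and 5.10 and 6.18 and 6.17 on day 7. It was higher by 1.14 ± 0.11 (adjusted p = 0.0136) and 1.03 ± 0.11 (adjusted p = 0.0254), with an interval of -0.51 to 0.28. The interval was -0.28 to 0.80 for Ltf, lactoferrin, -0.996 to 0.86 for the neutrophil chemokine Cxcl5, 0.08 to 2.04 for Gp2, a receptor of antigen-sampling epithelium, -1.34 to -0.27 for Tmem213, a membrane protein, and -1.73 to -0.31 for Mybpc2, a fast muscle protein. Each of these intervals, which are not adjusted for the number of genes, reached beyond 0.5 log2 units in at least 1 direction, so these arrays allow a difference of that size.

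Of the 10 named genes of this class, 3 were lower on both days. Cyp1a1, the main target of the aryl hydrocarbon receptor, read 1.76 and 1.77 in PF68 and -0.16 and 0.15 in SWCNT on day 1, 3.70 and 3.64 and 1.38 and 1.18 on day 7. The SWCNT effect was -1.76 ± 0.14 (adjusted p = 0.00756) and -2.39 ± 0.14 (adjusted p = 0.00899), and the difference -0.62 ± 0.20 (adjusted p = 0.17) by limma. Ngp, a granule protein of immature neutrophils, changed by -1.88 ± 0.11 (adjusted p = 0.00259) and -1.47 ± 0.11 (adjusted p = 0.014), and H2-Eb1, a chain of an MHC class II molecule, by -1.82 ± 0.15 (adjusted p = 0.00771) and -1.37 ± 0.15 (adjusted p = 0.0256). The intervals of their differences were 0.03 to 0.80 and -0.08 to 0.99.

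Of the 83 genes with a called difference and neither day called, 45 differences were positive and 38 negative. The positive ones had a median SWCNT effect of -0.59 on day 1 and 0.65 on day 7, the negative ones 0.59 and -0.62. These opposite signs are all but fixed by the definition of the class. Aqp3, a water and glycerol channel of airway and squamous epithelium, had the largest value and a wide spread: 0.61 and 1.47 in PF68 day 1, -2.51 and -1.82 in SWCNT day 1, -1.80 and -2.99 in PF68 day 7 and -0.68 and 0.11 in SWCNT day 7. The groups stood apart on both days, and the difference was 5.31 ± 0.76 (adjusted p = 0.0388) by limma. Aqp3 was below the array median on 5 of the 8 arrays, and its difference ran from 2.04 to 6.12 over the alternatives of processing. Mki67, a protein of dividing cells, read 1.49 and 1.51 in PF68 and 0.44 and 0.17 in SWCNT on day 1, 0.59 and -0.19 and 1.79 and 1.49 on day 7. It was low with SWCNT on day 1 and high with SWCNT on day 7, a difference of 2.63 ± 0.39 (adjusted p = 0.0409). Of 25 measured genes of mitosis and DNA replication, 2 were called positive and none negative, beside 1.41% and 0.924% of all genes. The 2 were Mki67 and the anaphase activator Cdc20 (1.66 ± 0.23 (adjusted p = 0.0379), limma). Estimates were positive for 23 of the 25, beside 53.8% of all genes, with a median of 1.21. The list's mean level was 0.90 and 0.83 in PF68 day 1, 0.48 and 0.45 in SWCNT day 1, 0.33 and 0.20 in PF68 day 7 and 0.90 and 0.82 in SWCNT day 7.

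Trim30d, of an interferon-induced family, gave 2.93 ± 0.43 (adjusted p = 0.041), Ndufaf6, an assembly factor of respiratory complex I, 2.13 ± 0.36 (adjusted p = 0.0493), and H2-Ab1, an MHC class II chain, 1.14 ± 0.19 (adjusted p = 0.0489) by limma. Trim30d was below the array median on 6 arrays and passed the filter through PF68 day 1 alone. In the negative direction Hamp2 and Hamp, the hepcidins that control iron export, gave -2.48 ± 0.41 (adjusted p = 0.0483) and -1.59 ± 0.23 (adjusted p = 0.0396). Gstm2, a glutathione transferase, gave -1.28 ± 0.18 (adjusted p = 0.0388), Tkt, transketolase, -0.91 ± 0.14 (adjusted p = 0.0457), and Fkbp5, a co-chaperone induced by glucocorticoids, -1.19 ± 0.19 (adjusted p = 0.0461). Casq1, the calcium store protein of muscle, gave -2.18 ± 0.36 (adjusted p = 0.0485), Bzw2, a translation regulator, -2.05 ± 0.34 (adjusted p = 0.0485), and Tnfrsf22, a decoy receptor, -1.94 ± 0.32 (adjusted p = 0.0483). Over all genes 0.924% were called negative and 1.41% positive. Of 18 Nrf2 antioxidant genes 4 were called negative and none positive, with a median of 0.21 on day 1 and -0.14 on day 7. Of 17 airway secretory genes 4 were called negative and none positive, and of 17 glucocorticoid-induced genes 4 were positive and 1 negative. By limma no member was called among 21 endothelial, 17 ciliated cell and 24 NF-kappaB cytokine genes; at an unadjusted p below 0.05 there were 11, 4 and 8, beside 20.8% of all genes.

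Measures of RNA quality and of the spikes differed between the groups beside all these results. The 3′ minus 5′ signal of the Actb control, which grows as RNA is shorter, was 2.02 for PF68 and 1.34 for SWCNT on day 1 and 3.27 and 2.97 on day 7 (means of 2 arrays, SD 0.02 to 0.04). The same measure of Gapdh was 1.04, 0.716, 2.41 and 2.21 in that order. The hybridization spikes averaged 4.97, 5.17, 5.60 and 4.99, a difference of effects of -0.81. The part of these in the called differences was not tested. Of the 110 named genes, 32 had further probe sets, and for 9 at least 1 of these gave a difference of the opposite sign: Agbl5, Cdc20, Fabp3, Fkbp5, Fn1, Golt1b, Hspa8, Ighm and Pfkl. With the median over probe sets 24 of the 32 were no longer called by limma, and for 13 of these the value also moved by over 1.5 times or reversed. Beside Agbl5, Fn1, Golt1b and Ighm above and Hspa8, that median was 0.99 for Cdc20, -0.63 for Fabp3, -0.55 for Fkbp5, -0.70 for Fabp4, 0.40 for C2, 1.61 for Cmpk2, 1.03 for Atp6v0d2 and -0.67 for Gstm1. H2-Ab1 remained called and gave a larger value, 1.78.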

How the data were processed

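Biotin-labelled cRNA of total RNA was measured on Affymetrix arrays of 1 colour, per the labels' protocols. The submitters' processing notes name RMA, without version or settings. The authors' deposited values were taken to be log2 signals, since their log base and offset are not stated in what was used here. Sorted, the 8 columns were identical, as quantile normalization by the authors would leave them, so a shift shared by all genes cannot be seen. Another log base would multiply every log2 difference by 1 factor and leave the tests as they are. The arrays give no counts or background flags, and their number limits the precision.

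Of 45101 probe sets, 64 controls and 8 with a missing value were left out; 34945 had 1 gene symbol in the platform's annotation, 932 several, and 9160 were not listed. Of the genes tested, 13785 had a gene ID in the RefSeq table of GRCm38.p6, and 11133 had a promoter there. Probe sets that reached the array median on 2 or more arrays were kept, and the kept probe set with the highest mean stood for its gene; for 1537 genes that probe set can bind related transcripts. Group means were fitted with limma 3.58.1 in R 4.3.3 (lmFit, eBayes; 4 residual and 1.81 prior degrees of freedom) over all 8 arrays, with Benjamini-Hochberg adjustment over the 13854 genes of a contrast and a threshold of 0.05. The procedure was tested on simulated data. Within groups the arrays correlated at 0.914 to 0.94 and between groups at 0.891 to 0.931.

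Replicate numbers were the labels'; the correlation of same-numbered arrays' deviations was -0.00605 to 0.0114, so the numbers were not used as pairs. Named genes were, among called genes whose SWCNT and PF68 arrays did not overlap on at least 1 day, the 12 most positive and 12 most negative differences, the 6 largest of each class called on 1 day, the 10 largest in opposite directions, the 10 in the same direction with the largest smaller effect, 4 and 4 with neither day called, and up to 4 called members of each list. Predicted genes, antigen receptor segments and pseudogenes were skipped outside the lists. The gene set and all 37 lists were chosen with earlier results of these data known. The columns of other samples numbered 0. Promoters were searched with pandas 2.3.3 in Python 3.11.15, and figures were drawn with matplotlib 3.10.9. Alternatives covered the filter, the probe set, the normalization, the variance model, weights, thresholds, a replicate block and leaving out each array.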

Additional observations from a re-analysis of the deposited data

Results flagged for a closer look

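The SWCNT effect differed between the days, by limma's test of the difference itself, for 196 genes in the positive and 128 in the negative direction. Among them are the 13 genes that were called on both days in opposite directions. The difference of effects was -5.71 for Car3, -4.28 for Cyp2e1, -3.28 for Bpifa1, -2.84 for Afp, -2.51 for Cox4i2, -1.71 for Nnat and -1.50 for Gstm1, which were higher with SWCNT on day 1 and lower on day 7. It was 2.35 for Ctss, 2.34 for Cdca8, 2.33 for Rgs1, 2.16 for Ccl8, 1.84 for Chia1 and 1.55 for Cybb, which were lower with SWCNT on day 1 and higher on day 7. The further probe sets of Cdca8 and Gstm1 did not all give opposite directions, as described above.

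Probe sets without 1 gene symbol of their own entered no comparison above. In a fit over all 27368 kept probe sets, 127 had a called difference of effects, and 21 of these were among the 4060 without 1 symbol.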

How the results depend on the processing

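Against 324 called differences, 300 calls on day 1, 302 on day 7, 128 genes for day 1 alone, 98 for day 7 alone, 27 in the same and 13 in opposite directions, the following counts are in that order. Without a filter they were 50, 123, 24, 34, 6, 3 and 2. With the median over a gene's probe sets they were 106, 188, 89, 57, 23, 8 and 6. With a variance trend they were 1334, 1214, 1530, 450, 519, 199 and 169. With dim values raised to the array median they were 740, 559, 764, 253, 303, 60 and 41. Scaled to the spikes they were 6745, 608, 7056, 184, 5281, 59 and 356. With a filter on 4 arrays they were 502, 376, 615, 155, 216, 51 and 26. With array weights, 294 differences were called, but 102 genes on day 7, 50 for day 7 alone, 15 in the same and 7 in opposite directions. At an adjusted p of 0.10 there were 978 differences, 285 for day 1 alone, 434 for day 7 alone, 96 in the same and 68 in opposite directions. With the replicate block they were 30, 102, 15, 23, 5, 2 and 1; the numbers do not pair the arrays. Without 1 array in turn the ranges were 3 to 74, 30 to 189, 0 to 18, 2 to 46, 0 to 11, 0 to 2 and 0 to 1. Without either SWCNT day 7 array limma called 0 genes on day 7, with 2322 and 2242 at an unadjusted p below 0.05; the lone array was taken to vary like the other groups. Cyclic loess (323 differences), robust moderation (274) and choosing the probe set before the filter (334) left all 7 counts within 1.5 times. The cause of these shifts was not tested. The called genes kept their sign in each alternative but the median over probe sets, where 316 of 324 did; with the filter on 4 arrays only 297 of them were tested. There Agbl5 gave 0.16, Hspa8 -0.24 and Ighm 0.68, reversing their sign. Hspa8, whose adjusted p by limma rounds to 0.05, is left out of the next counts. Of the other 99 named genes with a called difference, 20 kept the call in every alternative other than leaving out arrays, and 3 with each array left out. Among the named genes, Crct1, Cxcl10, Krt4, Krtdap, Mt4, Myh1, Myl1, Tnnc2, Tnnt3 and Trim30d were below the median on 6 arrays. They rest on dim signals elsewhere, and no background flag was given.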

Other observations

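Gene groups not described above are given here and in the next paragraph. Over all genes tested, 2.34% had a called difference of effects. Of 20 genes of hypoxia and glycolysis, 1 was called positive and 2 negative; the list's median was 0.71 on day 1 and 0.42 on day 7, with 6 members called higher on day 1 and 3 on day 7. Of 25 immediate early genes, Fos and Nr4a1 were called positive and Jund negative (-0.90 ± 0.14 (adjusted p = 0.0461), limma). Of 10 genes of MHC class II antigen presentation, Ctss and H2-Ab1 were called positive, and the list's mean level was 1.997 and 2.16 on the SWCNT day 1 arrays against 2.86 to 3.12 on the other 6. Of 6 targets of the aryl hydrocarbon receptor, Aldh3a1 was called negative, and the list's median was -0.17 on day 1 and -1.22 on day 7.

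One member each was called among 14 acute phase genes (Lcn2), 13 B and plasma cell genes (Ighm) and 17 surfactant and alveolar cell genes (Pdpn). The same held for 11 CXC chemokines not driven by interferon (Cxcl14, -1.29 ± 0.18 (adjusted p = 0.0379, limma)), 15 complement genes (C2) and 19 heat shock genes (Hspa8). Hspa8, a constitutive chaperone, gave 0.84 ± 0.14 (adjusted p = 0.05). Among 14 genes of metals, heme and iron, Mt2 was called positive and Hamp negative. Among 15 genes of alternative macrophage activation Arg1 and Clec7a were called positive and none negative. The median difference of these 15 genes was -0.06, and 6 of their estimates were positive, beside 53.8% of all genes. No red cell or platelet gene of 8 was called by limma, and 2 had an unadjusted p below 0.05, beside 20.8% of all genes. Their median was -0.39 on day 1 and -0.41 on day 7. Ddit4, a stress gene induced by glucocorticoids, gave 1.03 ± 0.17 (adjusted p = 0.0483), Plin4, a lipid droplet protein, -1.58 ± 0.22 (adjusted p = 0.0379), and Reg3g, an antimicrobial lectin of the airway, -0.95 ± 0.15 (adjusted p = 0.0457).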
